A study of Homo sapiens and Mus musculus with 12 samples.

Results

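The genes described here encode the nuclear subunits of the respiratory chain and of ATP synthase, together with the assembly factors that share their symbols. They were chosen by symbol: those that begin with NDUFA, NDUFB, NDUFC, NDUFS, NDUFV, UQCR, COX4 to COX8 or ATP5, and SDHA to SDHD and CYC1, without numbered pseudogenes, and with 10 or more counts in at least 3 libraries. In mouse, 93 symbols matched and 87 passed the count minimum, of 22021 genes listed. In human, 99 symbols matched after 33 pseudogene symbols were left out, and 91 passed, of 18304 genes listed. The symbol rule itself uses no difference between groups. All 87 and all 91 were then tested.

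Oxidative phosphorylation takes place in the inner mitochondrial membrane. Complex I accepts electrons from NADH and complex II accepts them from succinate, and complexes III and IV pass them on to oxygen. Complexes I, III and IV pump protons across the membrane, and complex V, the ATP synthase, lets the protons flow back and makes ATP. NK cells use this pathway at rest and raise it, together with glycolysis, when cytokines activate them.

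RNA of splenic NK cells sorted from WT and KO mice was sequenced, with 3 libraries a group. WT mice were Ehmt2 flox/flox, and KO mice carried in addition Ncr1 iCre, so that the recombinase was made in cells that express the NK receptor gene Ncr1. All mice were age- and sex-matched young adults of the C57BL/6J strain. The titles name EHMT2-KO while the genotype label of the same samples reads Ezh2-KO, and the titles were followed. In the other experiment NK92MI, a human NK line engineered to produce IL-2, was treated with BIX-01294, an inhibitor of EHMT2 (G9a) and of its partner EHMT1, or with the solvent DMSO, with 3 libraries each. The labels give neither the dose nor the time. The study states both for its functional assays of NK92MI cells but does not say whether they hold for these libraries. EHMT2 places the dimethyl mark on lysine 9 of histone H3, a mark of silent chromatin. NK92MI is a line, so its 3 libraries a group are not separate donors. DMSO libraries are numbered by their column in the count table, and their link to the numbered samples is not given.

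Library totals lay between 25891680 and 37438868 counts in mouse, with WT replicate 2 the shallowest, and between 16579469 and 17165446 in human. Levels are TMM-normalized CPM, which scale each library's counts to the same total, and differences are log2 fold changes with their standard errors (SE) from edgeR's quasi-likelihood test. A gene is called here where its p, adjusted by Benjamini and Hochberg's method over all genes tested in its table, was under 0.05. Ehmt2 stood at 275, 284 and 285.5 CPM in WT and at 171, 143 and 137 CPM in KO replicates 1 to 3. Its counts cannot show whether the deleted part of the gene was still transcribed. All 12 genes of a pan-NK list were detected in mouse, at a sum of 5614 to 9534 CPM in WT and 10750 to 12540 CPM in KO libraries, and 7 were called higher in KO. Markers of other spleen cells moved with the groups. The summed level of 7 B cell genes was 491 to 1371 CPM in WT and 91.1 to 453 CPM in KO, and that of 10 macrophage and monocyte genes was 2572 to 6683 and 1381 to 2516 CPM. The 7 neutrophil genes summed to 67.7 to 809 CPM in WT and 1.29 to 83.2 CPM in KO, the 6 erythroid genes to 209 to 344 and 94.4 to 128 CPM, and the 5 T cell genes to 128 to 205 and 85.4 to 169 CPM. Of the tested markers, 0 of 7 B cell, 5 of 10 macrophage and monocyte, 2 of 6 neutrophil and 6 of 6 erythroid genes were called lower in KO, and 1 of 5 T cell genes was called higher. None of these marker genes was at 0 in every library. Their part in the mouse results was not tested. In bulk samples, fewer cells of a type and less RNA per cell cannot be told apart. All 11 genes of an NK92 list were detected in human, 5 of them called higher and 3 lower with BIX.

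Upstream sequence is shown for 4 human genes that were called and differ in direction, because subunit genes of this pathway are known to share binding sites for the factors NRF1, GABPA (an ETS factor), SP1 and YY1. The sequences come from RefSeq (GRCh38.p14), run 5′ to 3′ toward the start site and stop before the first annotated exon base. Capitals mark matches to GCATGCGC or GCACGCGC (both forms of the core of the NRF1 site), CCGGAAG (ETS), GGGCGG (SP1) and AAGATGGCG (YY1), on either strand. SDHB (chr1:17054033-17054282, minus strand) and NDUFAF4 (chr6:96897892-96898141, minus strand) were lower in BIX. NDUFA12 (chr12:95003749-95003947, minus strand) and NDUFAF1 (chr15:41402533-41402746, minus strand) were higher.
SDHB: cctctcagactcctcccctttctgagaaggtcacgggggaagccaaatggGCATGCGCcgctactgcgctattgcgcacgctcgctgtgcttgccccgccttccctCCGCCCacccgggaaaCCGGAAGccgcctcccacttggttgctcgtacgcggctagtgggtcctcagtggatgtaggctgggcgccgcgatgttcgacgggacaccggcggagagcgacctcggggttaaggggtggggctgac
NDUFAF4: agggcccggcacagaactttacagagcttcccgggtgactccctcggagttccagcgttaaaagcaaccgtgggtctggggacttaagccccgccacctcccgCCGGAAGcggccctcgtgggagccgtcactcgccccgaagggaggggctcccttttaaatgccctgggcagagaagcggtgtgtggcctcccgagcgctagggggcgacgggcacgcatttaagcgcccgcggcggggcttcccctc
NDUFA12: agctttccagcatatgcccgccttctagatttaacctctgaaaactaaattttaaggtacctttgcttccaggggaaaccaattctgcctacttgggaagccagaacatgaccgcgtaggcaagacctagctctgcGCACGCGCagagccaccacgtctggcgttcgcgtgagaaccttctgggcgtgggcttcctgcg
NDUFAF1: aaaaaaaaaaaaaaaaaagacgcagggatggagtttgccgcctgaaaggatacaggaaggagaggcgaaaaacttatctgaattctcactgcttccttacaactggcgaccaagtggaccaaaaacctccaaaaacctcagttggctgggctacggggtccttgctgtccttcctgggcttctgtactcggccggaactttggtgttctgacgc

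SDHB held 3 matches, an NRF1 match beginning 200 bases before the start site, an SP1 match at 144 and an ETS match at 128, and NDUFAF4 held an ETS match at 147. NDUFA12 held an NRF1 match at 114. The stretches printed for NDUFA12 and NDUFAF1 end 51 and 36 bases before the start site, and the whole 250 bases of NDUFAF1 held none of these letters. Promoter windows were found for 75 of the 91 human genes, and 250 upstream bases of each were searched. The NRF1 letters stood in 24% of these 75 genes and in 6.2% of all 27305 genes with a window. The ETS letters stood in 26.7% of them and 10.2% of all, the SP1 letters in 60% and 46.2%, and the YY1 letters in 2.67% and 0.784%. At least one of the motifs stood in 74.7% of the 75 genes and in 50.9% of all. Among the 15 genes called lower that had a window, 12 held one, and among the 5 called higher, 2 did, too few to compare. No motif contains another. These are matches of letters, not sites, and most genes with a window are not subunit genes.

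The second set of sequences is the c subunit of ATP synthase, the proton-carrying ring. It has 3 genes, ATP5MC1, ATP5MC2 and ATP5MC3, and their values with BIX are given below with complex V. Shown are the last 75 codons and the stop codon of the main GENCODE transcript of each (GRCh38), which encode the mature protein, with capitals at the bases that differ among the 3. The bases lie in exons of ATP5MC1 (chr17:48895222-48895769, plus strand), ATP5MC2 (chr12:53665314-53669260, minus strand) and ATP5MC3 (chr2:175178288-175179169, minus strand), and the ranges span introns.
ATP5MC1: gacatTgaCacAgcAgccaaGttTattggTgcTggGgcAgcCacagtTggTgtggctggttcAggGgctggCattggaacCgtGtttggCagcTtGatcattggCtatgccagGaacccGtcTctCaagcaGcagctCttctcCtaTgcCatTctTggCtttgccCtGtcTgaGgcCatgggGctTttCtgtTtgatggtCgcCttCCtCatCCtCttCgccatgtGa
ATP5MC2: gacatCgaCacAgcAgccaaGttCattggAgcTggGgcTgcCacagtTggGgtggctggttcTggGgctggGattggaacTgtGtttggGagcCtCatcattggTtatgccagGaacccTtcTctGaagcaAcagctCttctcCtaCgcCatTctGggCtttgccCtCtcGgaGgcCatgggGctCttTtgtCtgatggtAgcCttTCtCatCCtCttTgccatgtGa
ATP5MC3: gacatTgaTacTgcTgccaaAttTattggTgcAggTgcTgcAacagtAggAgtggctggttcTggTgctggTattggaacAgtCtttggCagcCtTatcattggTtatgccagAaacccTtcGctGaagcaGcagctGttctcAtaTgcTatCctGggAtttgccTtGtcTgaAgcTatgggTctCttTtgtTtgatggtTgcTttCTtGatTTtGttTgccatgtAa

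Of the 228 bases, 53 differed among the 3 genes, and the 75 encoded residues did not differ at any position. ATP5MC1 and ATP5MC2 differed at 25 bases, and each of them differed from ATP5MC3 at 43. The 3 genes thus make the same mature protein from transcripts that differ in the mature part, in the leader that is cut off and in their untranslated ends. The annotation names 8 pseudogenes after ATP5MC1 and 5 after ATP5MC2, and how reads shared with them were counted is not stated.

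As a share of all counts, the pathway took a similar part of each library. In mouse the 87 genes held 0.793%, 0.738% and 0.721% of all counts in WT and 0.795%, 0.701% and 0.685% in KO, in the order of the replicates. The groups overlapped. Complex V genes held the most, 0.261% ± 0.0159 (SD, n = 3) in WT and 0.25% ± 0.0204 (SD, n = 3) in KO, and complex II the least, 0.0389% ± 0.0023 and 0.0382% ± 0.00188 (SD, n = 3). In human the 91 genes held 0.591%, 0.651% and 0.634% in DMSO libraries 1 to 3 and 0.6%, 0.52% and 0.646% in BIX replicates 1 to 3. BIX replicate 2 was lowest, and the other BIX replicates lay among the DMSO libraries. For complex V the human shares were 0.199% ± 0.0094 in DMSO and 0.173% ± 0.0182 in BIX (SD, n = 3), with the highest BIX library at 0.191% and the lowest DMSO library at 0.19%. A two-sided exact permutation test of 3 against 3 libraries cannot go below p = 0.1, so no p is given for these shares.

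**Figure D1:**
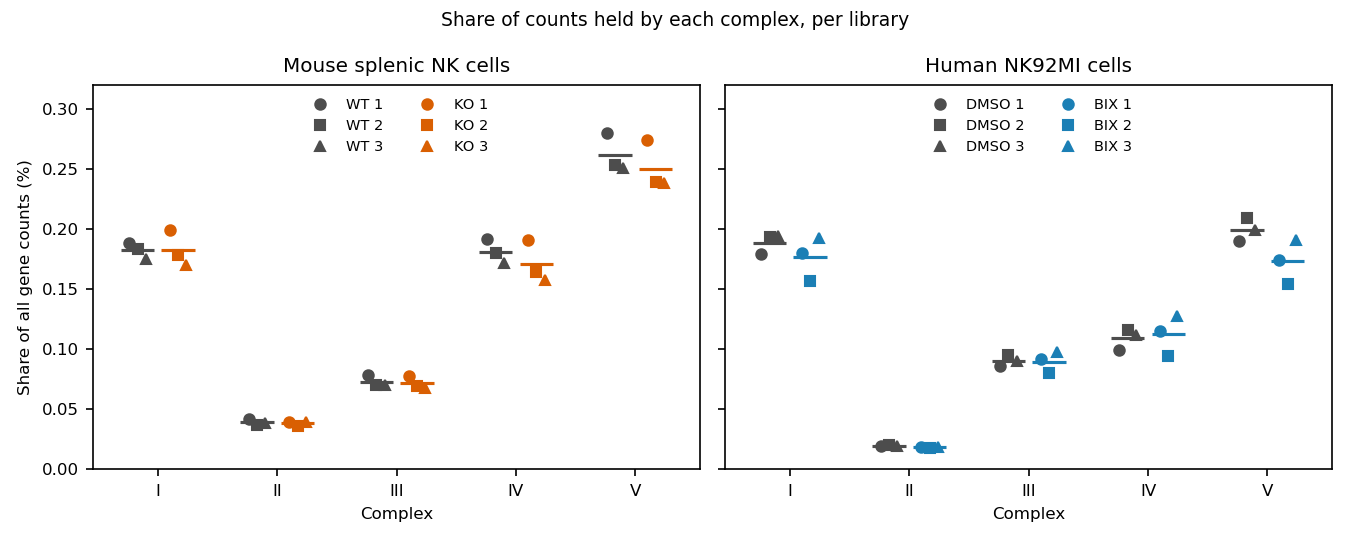
Share of all gene counts in percent held by each complex, per library, in mouse (left) and human (right); symbols number the libraries of a group and horizontal bars are means of 3. WT and KO overlap in all 5 complexes, and BIX replicate 2 is the lowest BIX library in each complex.

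Between genes, levels are compared here per length. Length is the joined exons of all annotated transcripts of a gene, which can exceed the RNA that was made. It was 19359 bases for NDUFA10 and 421 for NDUFA1, so the levels below also depend on the annotation. Per kilobase of annotated exon, and among genes with under 10% of their exon bases shared with another gene, the median WT level in mouse was 25.4 CPM per kb over 30 complex I genes, 41.3 over 4 complex II genes, 52.7 over 8 complex III genes, 79.4 over 12 complex IV genes and 47 over 14 complex V genes. The 6 assembly factors had a median of 4.68 CPM per kb. In DMSO-treated NK92MI cells the medians were 24.3 CPM per kb over 21 complex I genes, 33 over 2 complex II genes, 39.4 over 7 complex III genes, 59 over 9 complex IV genes, 29.1 over 12 complex V genes and 6.29 over 7 assembly factors. Assembly factors help to build a complex and are not part of it.

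In mouse NK cells, almost no gene of the pathway passed the test between KO and WT. Of the 87 genes, 1 was called lower in KO and 0 were called higher, while 11.9% of all 13189 genes tested were called in either direction, 7.43% lower and 4.44% higher. By unadjusted p under 0.05, 5 of the 87 genes were lower and 0 higher, against 20% and 15.8% of all genes. With DESeq2 3 were called lower and 0 higher, against 15.1% and 8.33% of all genes. The median log2 fold change was −0.04, against 0.01 over all genes tested, and 58 of 87 estimates were negative. The median was −0.03 over 36 genes of complex I, −0.06 over 4 of complex II, −0.07 over 9 of complex III, −0.05 over 14 of complex IV and −0.05 over 16 of complex V, and −0.01 over 8 assembly factors. The median standard error of the 87 log2 fold changes was 0.11, which limits what could be seen. Under the stricter thresholds in the study's methods, with adjusted p below 0.01 and log2 fold changes beyond 0.5 in size, 0 of all genes were called by edgeR, and 1 of the 87 passed by DESeq2, against 11.3% of all genes. These values are relative to all genes: scaled instead to the pan-NK list, all genes shifted by −0.86, and 86 of the 87 genes and 74.9% of all genes were called lower, at a median of −0.05 relative to all genes.

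The called gene was Cox6b2, which encodes the testis form of a subunit that helps to hold complex IV together as a dimer (GRCm38 chr7:4751792-4753094, minus strand). It stood at 3.62, 4.89 and 4.19 CPM in WT and at 2.67, 2.05 and 1.62 CPM in KO replicates 1 to 3. The groups did not overlap, and the log2 fold change was −1.0 (SE 0.25, adjusted p = 0.0473 by edgeR). Its counts were low, 59 to 156 a library. Its adjusted p with each library left out lay between 0.0378 and 0.16, and it was called without KO replicate 1 and lost in the fits without each of the other 5 libraries. The widely expressed paralog Cox6b1 stood at 127 ± 7.24 CPM in WT and 119 ± 14.3 CPM in KO (SD, n = 3), with a log2 fold change of −0.10 and an adjusted p of 0.5 by edgeR. Per kilobase, Cox6b2 reached 3.82 CPM in WT where Cox6b1 reached 180, so it was a minor form here.

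Cox6a2, the heart and skeletal muscle form of another complex IV subunit, had the lowest log2 fold change of the 87 genes. It stood at 64.9, 28.1 and 24.3 CPM in WT and at 18.6, 14.7 and 10.5 CPM in KO replicates 1 to 3. No KO value reached a WT value, but WT replicate 1 was far above the rest. The log2 fold change was −1.42 (SE 0.39, adjusted p = 0.0526 by edgeR), which is not a call. Without WT replicate 1 it was −0.84 (adjusted p = 0.104). It was called without WT replicate 2 (adjusted p = 0.022). Its exons share 10.3% of their bases with Itgad. The summed macrophage and monocyte level was 6683, 2572 and 4943 CPM in WT and 2516, 1381 and 1918 CPM in KO replicates 1 to 3. The part of either in this difference was not tested. The paralog Cox6a1 stood at 283, 277 and 264 CPM in WT and 276, 266 and 239 CPM in KO, with a log2 fold change of −0.08 and an adjusted p of 0.538 by edgeR.

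**Figure D2:**
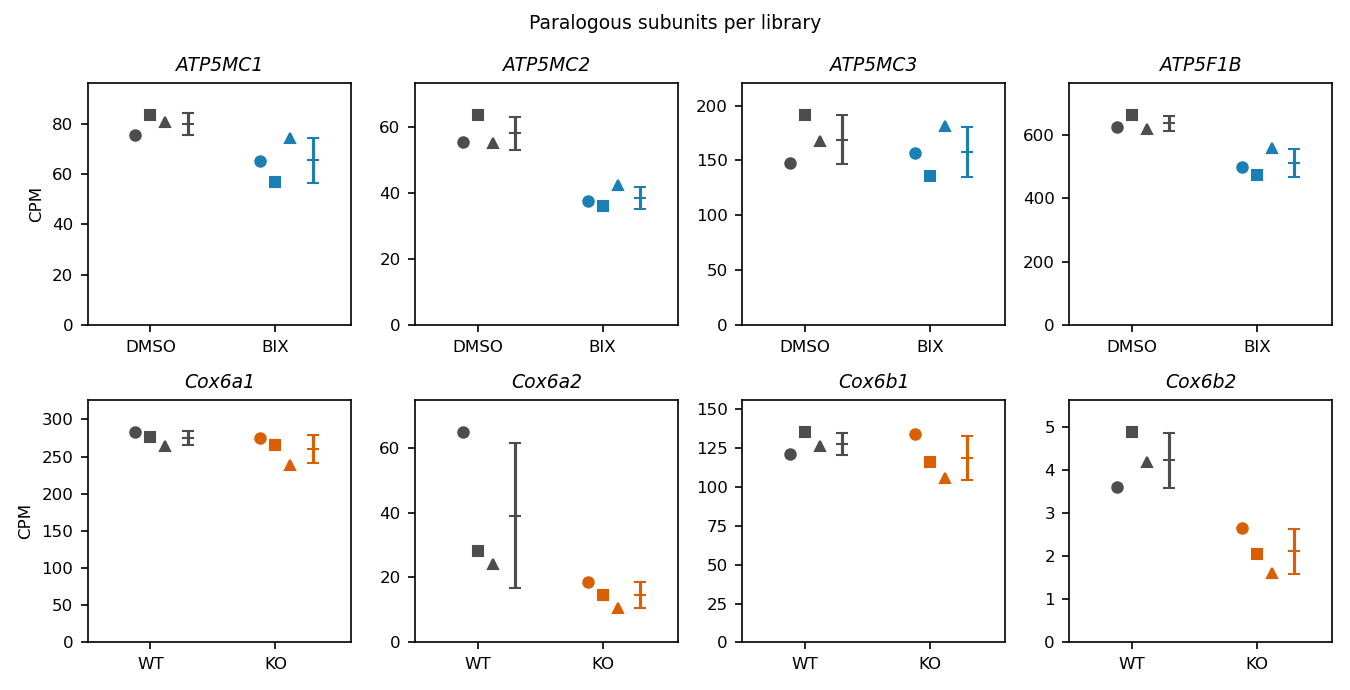
CPM of single genes per library, with the mean and SD of 3 libraries beside the points; the upper row shows human complex V genes in DMSO and BIX, the lower row shows paired forms of mouse complex IV subunits in WT and KO, and symbols number the libraries. ATP5MC2 and ATP5F1B are lower in every BIX library, ATP5MC3 overlaps, and Cox6a2 has a high WT replicate 1 at 64.9 CPM.

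Elsewhere among the complex IV symbols, Cox7a2l stood at 275, 252 and 254 CPM in WT and 241, 194 and 201 CPM in KO. The groups did not overlap, and the log2 fold change was −0.30 (SE 0.10, adjusted p = 0.0883 by edgeR). Cox5a had −0.30 (adjusted p = 0.127 by edgeR) with overlapping groups, and Cox4i1, the most used form of its subunit, −0.18 (adjusted p = 0.219). Cox7a2 had 0.14 and Ndufa4, a complex IV subunit despite its name, 0.09, with groups that overlapped. Cox4i2, Cox7a1, Cox8b, Cox8c, Cox7b2 and Ndufa4l2, tissue-restricted forms, did not reach the count minimum. Cox4i2 came nearest, with 10 or more counts in 2 libraries (21 and 14 in WT replicates 1 and 3, and 2 to 4 in KO). Cox8b, Cox8c and Cox7b2 had 0 counts in all 6 libraries, which does not exclude a level too low to be counted at these depths. Just inside the minimum were Cox6b2 with 59 counts in its lowest library and Ndufaf6 with 64.

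In complex I, 0 of 36 genes were called, and the lowest adjusted p was 0.141 by edgeR. Ndufa5, of the matrix arm, had the highest log2 fold change of the 87 genes, 0.34 (SE 0.17, adjusted p = 0.189), at 9.01, 6.48 and 6.69 CPM in WT and 10, 9.05 and 8.97 CPM in KO. Its groups overlapped through WT replicate 1. Core genes had estimates near 0: Ndufs1, which carries iron-sulfur clusters, had 0.04 and Ndufv1, which binds NADH, −0.05. Ndufab1, the mitochondrial acyl carrier protein, had −0.19 (adjusted p = 0.305). Ndufs7 and Ndufa10 were higher in every KO than in every WT library, by 0.18 and 0.14 on the log2 scale, and did not pass the test (adjusted p = 0.141 and 0.244). Of the 87 genes, 6.9% had groups that did not overlap, 3 higher and 3 lower, against 38.5% of all genes tested.

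Complexes II and III gave no call in mouse. Sdha, the flavoprotein of succinate dehydrogenase, stood at 174 ± 1.49 CPM in WT and 176 ± 13.9 CPM in KO (SD, n = 3). Sdhb, Sdhc and Sdhd had log2 fold changes of −0.02, −0.13 and −0.11. Uqcrfs1, the Rieske iron-sulfur protein of complex III, had −0.11, Uqcrc1 −0.07 and Cyc1, cytochrome c1, 0.10, and none of these passed the test.

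In complex V, 0 of 16 genes were called. Atp5b, the catalytic beta subunit and the most abundant of them in CPM, stood at 618, 542 and 574 CPM in WT and 578, 524 and 540 CPM in KO, with overlapping groups and a log2 fold change of −0.08. Atp5a1, the alpha subunit, had −0.04. Among the c subunit genes Atp5g2 stood at 152, 151 and 135 CPM in WT and 136, 115 and 107 CPM in KO. The groups overlapped at WT replicate 3 and KO replicate 1, and the log2 fold change was −0.29 (SE 0.11, adjusted p = 0.0979 by edgeR). Atp5g1 had −0.17 and Atp5g3 −0.02. Atp5g2 and Cox7a2l were both called without KO replicate 1, together with Cox6b2.

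The inhibitor of ATP synthase, which blocks its reverse reaction, is listed in mouse under the older symbol Atpif1 and so fell outside the symbol rule. It stood at 106, 84.2 and 112 CPM in WT and at 66.6, 63.2 and 56.2 CPM in KO replicates 1 to 3. The groups did not overlap, and the log2 fold change was −0.70 (SE 0.12, adjusted p = 0.0292 by edgeR), a call that left-out libraries moved between 0.00302 and 0.132. In human the same gene, ATP5IF1, stood at 82.3 ± 10.9 CPM in DMSO and 84.8 ± 15.3 CPM in BIX (SD, n = 3), with a log2 fold change of 0.04.

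Subunits encoded by mitochondrial DNA were tested in mouse. None of their symbols was among the genes listed in human. Of 11 tested, 0 were called by edgeR, with 1 at an unadjusted p under 0.05, and 10 estimates were negative, with a median log2 fold change of −0.27. The abundant mt-Co1, the catalytic core of complex IV, stood at 7100 ± 895 CPM in WT and 6404 ± 691 CPM in KO (SD, n = 3), a log2 fold change of −0.15. mt-Nd5 stood at 2658 ± 228 and 2319 ± 191 CPM (SD, n = 3), with groups that did not overlap and an adjusted p of 0.29. At or below 7 CPM were mt-Co2, mt-Co3, mt-Atp6, mt-Nd6 and mt-Nd3, with log2 fold changes of −0.55, −0.82, −0.27, −0.46 and 0.34. The other genes tested, all abundant, had −0.28 to −0.10. mt-Atp8 had no counts. These libraries were selected for poly(A) RNA. Why some of these genes were so low beside mt-Co1 was not tested.

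Of 45 mouse assembly factors outside the symbol rule, 1 was called, Atpif1, which is counted with them. None of 10 genes for electron carriers and exchange, 16 of the TCA cycle and 76 of the mitochondrial ribosome was called by edgeR, with 2, 4 and 11 at an unadjusted p under 0.05. Of 17 regulators of mitochondrial biogenesis, Polg, the polymerase of mitochondrial DNA, was called higher (log2 fold change 0.42, adjusted p = 0.0404 by edgeR). The 79 cytosolic ribosome genes had a median of −0.21 with 75 negative, and 1 was called. Of all mouse genes tested, 11.9% were called.

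In NK92MI cells, 18 of the 91 genes were called lower with BIX and 6 higher, or 26.4%, while 36.9% of all 12727 genes tested were called, 18.4% lower and 18.4% higher. The share of the 91 genes called lower, 19.8%, was near that background, and the share called higher, 6.59%, was below it. The median log2 fold change was −0.06, against −0.01 over all genes tested, and 55 of 91 estimates were negative. The groups did not overlap for 26.4% of the 91 genes, against 47.9% of all genes tested, and among those called for 16 of the 18 lower and 5 of the 6 higher. Changes of the called genes lay between −45.3% and 84.1%. Under the study's thresholds 4 genes passed (NDUFA11, NDUFB9 and ATP5MC2 lower, NDUFC2 higher), against 11.7% of all genes.

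The human counts depended on single libraries. Without BIX replicate 1, 12 genes were called, 9 of them lower, while 26.7% of all genes were called. Without DMSO library 2, 13 were called, with 10 lower, while 28.1% of all genes were called. Without BIX replicate 2, 29 were called, 12 lower and 17 higher, and the median turned to 0.03, while 18.7% of all genes were called lower and 19.8% higher. Without BIX replicate 3, 32 were called, 27 lower and 5 higher, and the median was −0.14, while 18.4% of all genes were called lower and 19.1% higher. BIX replicate 2 had the lowest value of its group for 80 of the 91 genes, at a median deviation of −0.21 from the group mean on the log2 scale, and cytosolic ribosome genes deviated in it by −0.26. In all 6 fits with a library left out 11 genes remained called, 8 lower (NDUFA10, NDUFA11, NDUFB9, NDUFS8, NDUFV1, SDHB, ATP5F1B and ATP5MC2) and 3 higher (NDUFA12, NDUFC2 and NDUFAF1). Single left-out fits called 26.7% to 38.5% of all genes. The share of all genes that stayed called in all 6 fits was not counted.

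**Figure D3:**
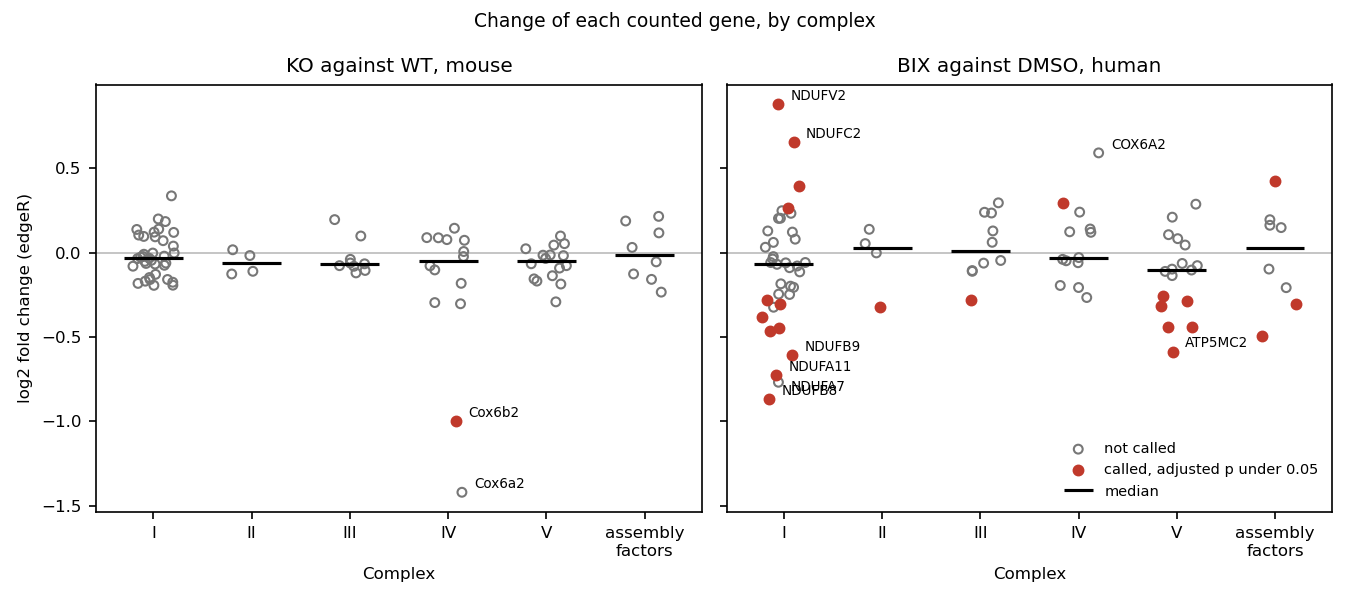
log2 fold change of each tested gene by complex, for KO against WT in mouse (left) and BIX against DMSO in human (right); filled points are called, bars are medians, and the 2 human loci that are not subunits or assembly factors are left out. Mouse genes other than Cox6a2 and Cox6b2 lie within 0.34 of 0. In human, 12 of 37 complex I genes (32.4%) and 6 of 17 complex V genes (35.3%) are called, against 36.9% of all genes tested.

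In complex I, 12 of 37 human genes (32.4%) were called, 8 lower and 4 higher, against 36.9% of all genes tested. The median log2 fold change was −0.07. NDUFA10, a subunit of the matrix-facing part, stood at 102, 98.5 and 103 CPM in DMSO and at 80.2, 80.4 and 84.7 CPM in BIX. Every BIX library lay below every DMSO library, and the log2 fold change was −0.31 (SE 0.06, adjusted p = 0.00196 by edgeR). NDUFV1, which binds NADH and passes on its electrons, stood at 186, 204 and 193 CPM in DMSO and at 147, 133 and 167 CPM in BIX, a log2 fold change of −0.38 (SE 0.08, adjusted p = 0.00207). NDUFS8, which carries 2 iron-sulfur clusters, had −0.45 (adjusted p = 0.00207). NDUFB9 and NDUFA11, subunits that stabilise the membrane arm, had −0.61 (adjusted p = 0.000935) and −0.72 (adjusted p = 0.000998). NDUFA11 stood at 13.2, 14.3 and 15.2 CPM in DMSO and at 7.92, 7.64 and 10.2 CPM in BIX. NDUFS7 and NDUFS3, core subunits, were called at −0.46 (adjusted p = 0.0382) and −0.28 (adjusted p = 0.0478), and NDUFS3 had overlapping groups. NDUFS1 had −0.08 and NDUFAB1 −0.19, and neither passed.

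The 4 higher complex I genes were NDUFA12, NDUFB6, NDUFC2 and NDUFV2. NDUFA12, a late-added matrix-arm subunit whose upstream sequence is printed above, stood at 42.2, 44.8 and 45.7 CPM in DMSO and at 57.5, 52.8 and 64.1 CPM in BIX. Every BIX library was above every DMSO library, and the log2 fold change was 0.39 (SE 0.08, adjusted p = 0.00243 by edgeR). NDUFB6, of the membrane arm, had 0.26 (adjusted p = 0.0272). NDUFC2 stood at 5.47, 6.49 and 5.62 CPM in DMSO and 9.44, 7.52 and 10.7 CPM in BIX, a log2 fold change of 0.65 (SE 0.16, adjusted p = 0.00601). NDUFV2, the partner of NDUFV1, had the highest value of all 91 genes, 0.88 (SE 0.32, adjusted p = 0.0424), on 15 to 40 counts a library, and the lowest was NDUFB8 at −0.87 (SE 0.28, adjusted p = 0.0261) on 18 to 50 counts. Neither of the last 2 stayed called in each fit with a library left out.

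Several of these genes overlap other genes in the human annotation. Exons of NDUFB8 share 48.5% of their bases with another annotated gene, those of NDUFV2 28.4%, of NDUFC2 21%, of NDUFS7 51.4% and of NDUFA11 12.1%. The shares were 18.1% for NDUFS3, 13.2% for NDUFB9 and 12% for NDUFV1. They were 21.6% for ATP5PO and 14.4% for NDUFAF3, which are described below. These are the 10 called human genes with 10% or more shared. Of the 31 human genes with 10% or more shared, 20 were below 20 CPM in DMSO, with a median of 10.7 CPM, and of the 60 with less, 6 were, with a median of 68.9 CPM. In mouse 2 of 12 and 12 of 74 were below 20 CPM. SDHA stood at 6.07 ± 1.42 CPM in DMSO with 21.7% shared and 6 pseudogenes named after it. The part of overlapping annotation in these counts was not tested. Restricted to the 60 genes with under 10% shared, 14 were called, 10 lower and 4 higher, and 1 of them exceeded 0.5 in size, ATP5MC2.

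In complex II, SDHB, the iron-sulfur subunit, stood at 78.7, 86.5 and 74.2 CPM in DMSO and at 63.8, 57.4 and 69.7 CPM in BIX. The groups did not overlap, and the log2 fold change was −0.33 (SE 0.08, adjusted p = 0.00818 by edgeR). The membrane anchors SDHC and SDHD had −0.0024 and 0.14, and SDHA 0.05, and none of the 3 was called. In complex III the Rieske protein UQCRFS1 was the 1 call of 10 genes, at 107 ± 4.42 CPM in DMSO and 88.5 ± 13.7 CPM in BIX (SD, n = 3), a log2 fold change of −0.28 (adjusted p = 0.0309) that lost its call with some libraries left out (adjusted p up to 0.11). UQCRC1 had −0.11 and CYC1 −0.05. The call in complex III was 10% of its genes, against 36.9% of all genes tested.

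In complex IV, 1 of 13 genes (7.69%) was called, and it was higher, against 36.9% of all genes tested. COX7A2, the widely expressed form of its subunit, stood at 119, 148 and 144 CPM in DMSO and at 169, 140 and 194 CPM in BIX. The groups overlapped through BIX replicate 2, and the log2 fold change was 0.29 (SE 0.11, adjusted p = 0.0471 by edgeR, up to 0.212 with a library left out). COX4I1 had 0.24 (adjusted p = 0.0638) and COX5A −0.27 (adjusted p = 0.0527), both not called. COX6A2 was counted 6 to 19 times a library and had 0.59 (SE 0.40, adjusted p = 0.274), opposite in sign to mouse and not a call. COX6A1 stood at 5.12 ± 0.346 CPM in DMSO with 13.1% of its exon bases shared. COX6B2, COX7A1 and NDUFA4L2 did not reach the count minimum, and neither did ATP5ME, with 5 to 16 counts a library.

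Complex V had 6 of 17 genes called (35.3%), all lower, with a median log2 fold change of −0.10. Of all genes tested, 36.9% were called, 18.4% lower. ATP5F1B, the catalytic beta subunit, stood at 624, 663 and 619 CPM in DMSO and at 497, 472 and 558 CPM in BIX. Every BIX library was below every DMSO library, and the log2 fold change was −0.32 (SE 0.07, adjusted p = 0.00271 by edgeR). ATP5F1A, the alpha subunit, had −0.26 (adjusted p = 0.012), ATP5F1D, of the central stalk, −0.44 (adjusted p = 0.0217, groups overlapping) and ATP5PO, of the peripheral stalk, −0.44 (adjusted p = 0.0231). ATP5F1A lost its call in some left-out fits (adjusted p up to 0.0618). ATP5F1C, the gamma subunit that turns within the alpha and beta ring, had −0.10 and was not called.

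Of the c subunit genes, whose coding ends are printed above, ATP5MC1 and ATP5MC2 were called lower and ATP5MC3 was not called. ATP5MC2 stood at 55.4, 63.8 and 55.1 CPM in DMSO and at 37.7, 36 and 42.4 CPM in BIX, with no overlap. Its log2 fold change was −0.59 (SE 0.09, adjusted p = 0.000193 by edgeR), the smallest adjusted p of the 91 genes. ATP5MC1 stood at 75.3, 83.6 and 80.6 CPM in DMSO and at 65.1, 56.7 and 74.4 CPM in BIX, also with no overlap, a log2 fold change of −0.29 (SE 0.09, adjusted p = 0.0236). ATP5MC3 stood at 148, 192 and 167 CPM in DMSO and at 157, 136 and 181 CPM in BIX, with overlapping groups and −0.10 (SE 0.10, adjusted p = 0.496). The difference between the 3 genes was not tested. Per kilobase in DMSO, ATP5MC3 reached 43.5 CPM, ATP5MC1 30.5 and ATP5MC2 14.9. In WT mouse NK cells the order was another, with Atp5g2 at 87.1, Atp5g3 at 38.6 and Atp5g1 at 16.4 CPM per kb. These orders depend on the annotated exon lengths. Atp5g3 and Atp5g1 had 84.2 and 80.4 CPM in WT, over 2181 and 4912 bases.

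**Figure D4:**
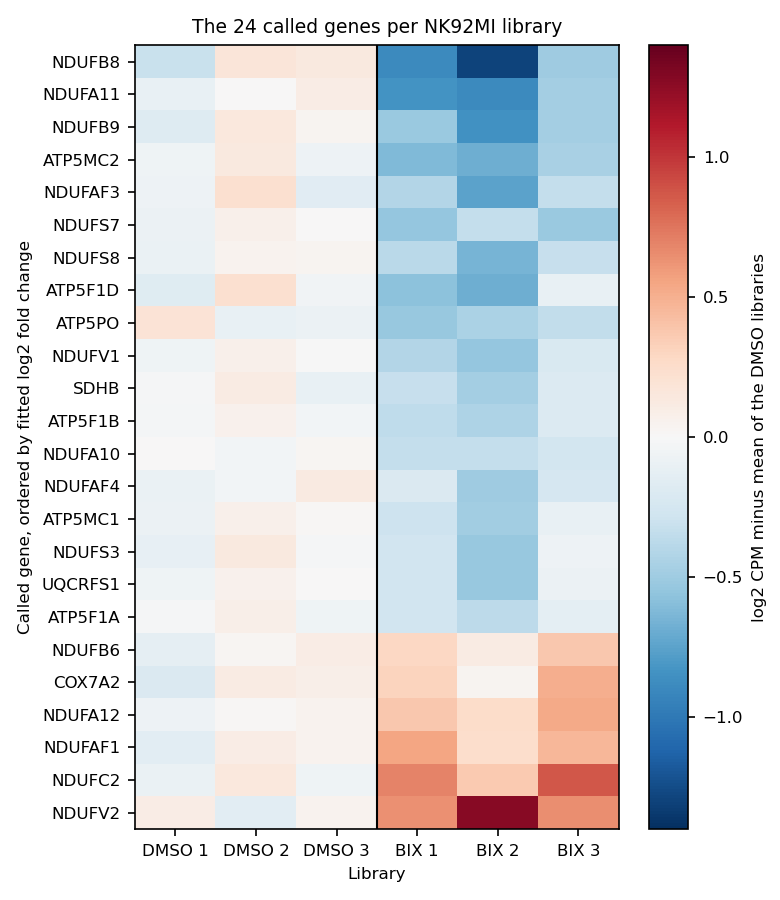
log2 CPM of the 24 called human genes in each library, as the difference from the mean of the 3 DMSO libraries; rows are genes ordered by fitted log2 fold change, columns are libraries, blue is lower and red is higher. BIX replicate 2 is the lowest BIX library for most genes, and ATP5PO is highest in DMSO library 1.

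Assembly factors of complex I moved both ways: NDUFAF1 was higher at 22.6, 26.9 and 25.9 CPM in DMSO and 36.8, 29.8 and 34.7 CPM in BIX, a log2 fold change of 0.43 (SE 0.10, adjusted p = 0.00558 by edgeR). NDUFAF4 and NDUFAF3 were lower, at −0.31 (adjusted p = 0.0194) and −0.49 (adjusted p = 0.0356). The symbol rule also took in UQCRHL, an intronless copy of UQCRH, and the noncoding NDUFA6-DT and NDUFV2-AS1, which had log2 fold changes of 0.29, −0.46 and 0.22 and were not called. Of 46 assembly factors outside the symbol rule, 5 were called higher and 9 lower, together 30.4%, against 36.9% of all genes tested. Among them ACAD9, which is needed to build complex I, had −0.60 (adjusted p = 4.11e-05), LRPPRC, which stabilises mitochondrial messenger RNA, −0.46 (adjusted p = 5.75e-05) and TMEM70, an assembly factor of ATP synthase, 0.46 (adjusted p = 0.00158).

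Genes that feed or exchange with the chain were lower where they were called, with 1 exception in the TCA cycle. Of 11 carrier and exchange genes 3 were called, all lower: the phosphate carrier SLC25A3 at −0.40 (adjusted p = 0.00102 by edgeR) and the ADP/ATP carriers SLC25A5 at −0.22 and SLC25A6 at −0.53 (adjusted p = 0.0326 and 0.000227). Of 16 TCA cycle genes 6 were called lower, among them PDHB at −0.39 and OGDH at −0.31, and DLST was called higher at 0.33. Of 16 regulators of mitochondrial biogenesis 6 were called lower, including NRF1 at −0.41 (adjusted p = 0.00395) and GABPA at −0.23 (adjusted p = 0.0139), and YY1 was called higher at 0.20 (adjusted p = 0.0174). The mitochondrial ribosome had 12 of 80 genes called lower and 6 higher, with a median of −0.07, and the cytosolic ribosome 13 of 78 lower and 2 higher, with a median of −0.07. These shares can be read against the background of 18.4% in each direction.

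Between the species, 83 genes were counted in both tables after older mouse symbols were matched. By the sign of the estimate, called or not, 34 were negative in both comparisons, 10 positive in both, 19 positive in KO and negative with BIX, and 20 the reverse. None of the 83 was called in mouse and 24 were in human. The 83 leave out the ATP synthase inhibitor, because mouse Atpif1 fell outside the symbol rule. It was called lower in KO, at −0.70, and ATP5IF1 had 0.04 with BIX. The signs were the same for 53% of them, and across genes Pearson's r was −0.2 and Spearman's rho −0.054, as a description of 83 genes that share their libraries. Of the 18 genes called lower with BIX, 13 had a negative and 5 a positive estimate in mouse, at a median of −0.05 in mouse and −0.41 in human, and of the 6 called higher 3 were positive in mouse. In complex V, 10 of 14 genes had the same sign and in complex IV 3 of 13. ATP5MC2 had the lowest complex V estimate in both, −0.59 with BIX and −0.29 in KO, the latter not a call. Cox6b2, the mouse call, was below the count minimum in human.

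**Figure D5:**
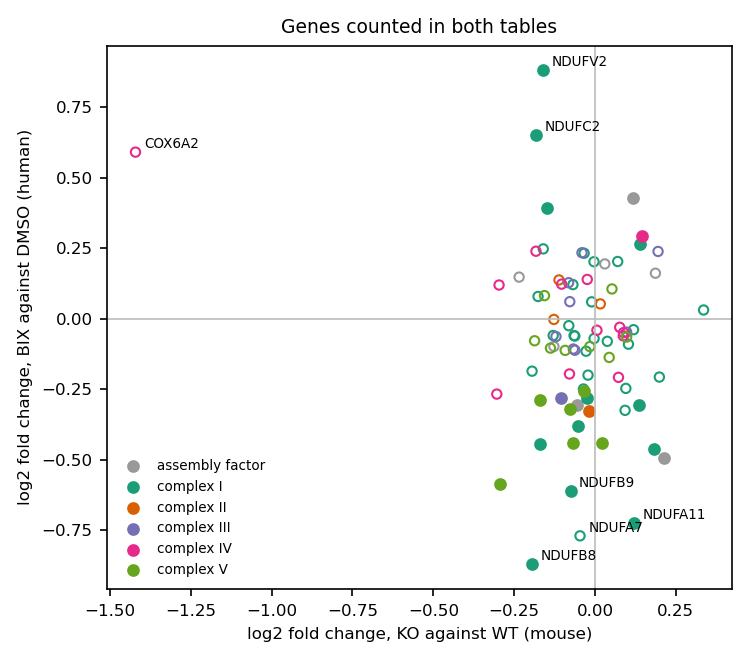
log2 fold change in mouse (KO against WT, horizontal) against human (BIX against DMSO, vertical) for the 83 genes counted in both tables, coloured by complex; filled points are called in human. Most points lie within 0.34 of 0 in mouse whatever their human value, and COX6A2 stands apart at −1.42 and 0.59.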

How the data were processed

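The authors trimmed reads with fastp 0.23.4, aligned them with STAR 2.7.11b, allowing 2 mismatches, to GRCm38 or GRCh38, and counted them with HTSeq 2.0.3. The values deposited by the authors are raw counts, one row a symbol, not normalized. The annotation release and strand setting are not given in the sources used here, so reads of overlapping, antisense and near-identical genes cannot be assigned with certainty. All count columns were used, 3 libraries a group. The labels do not say that replicates are separate animals or cultures, so p-values may measure technical spread.

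From these counts, each table was fitted separately in R 4.3.3 with edgeR 4.0.16 (TMM, filterByExpr, quasi-likelihood test) over all genes, with adjusted p under 0.05. SE is the log2 fold change divided by the root of F. Alternatives used DESeq2 1.42.0 and limma 3.58.1. The procedure was tested on simulated data. Members, lists and tests were chosen with earlier results of these data known. Genes named are, per complex and direction, up to 3 called genes with the smallest adjusted p and no overlap between groups, a fixed set of core subunits and paralogs, the extremes and the genes around the count minimum. Others were named after their values were seen. Positions and overlaps come from GENCODE (M21 and v44), which may differ from the authors' annotation.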

Additional observations from a re-analysis of the deposited data

How the results depend on the processing

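The mouse count of 1 lower gene became 2 with no filter and 3 with DESeq2, while 6.92% and 15.1% of all genes were called lower. With the replicate number as a block it became 5 (Cox6b2, Cox6a2, Cox7a2l, Cox5a and Atp5g2), while 14.6% of all genes were called lower. It was 0 under the study's thresholds. With each library left out it was 0 to 3, while 0 to 15.6% of all genes were called lower. Without KO replicate 2 or KO replicate 3, edgeR called 0 of all mouse genes, with 3208 and 3287 at an unadjusted p under 0.05. Deviations from the group mean correlated at 0.28, 0.35 and −0.19 between same-numbered mouse libraries, and at −0.44 to 0.28 between the others. These few values, from deviations that depend on each other within a group, cannot decide whether the replicate numbers pair the mouse samples. No paired analysis was possible for human because the DMSO columns have no link to the numbered samples. Scaled to the pan-NK list, which itself differed between the groups, all genes shifted by −0.86 (median log2 fold change), 86 of the 87 mouse genes and 74.9% of all genes were called lower, and the medians became −0.90 over all of them and −0.90, −0.94, −0.93, −0.92 and −0.92 for complexes I to V, so relative to all genes the pathway stood at −0.05. Under this scaling Ndufs1, Ndufa5, Sdha, Cyc1, Ndufa4 and Cox7a2 turned negative (−0.82, −0.56, −0.86, −0.79, −0.78 and −0.73).

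The human count of 24 (18 lower) became 4 (3 lower) under the study's thresholds. Of the alternatives added after the data were seen, adjusted p under 0.05 with a log2 fold change over 0.5 in size gave 6 (4 lower), and exon overlap under 10% gave 14 (10 lower). It was 12 to 32 (9 to 27 lower) with each library left out, and 22 to 25 under other scalings, filters and tools. The human complex II median of 0.03 was −0.0658 to 0.0758 with a library left out and −0.16 without overlapping genes. SDHC, near 0, turned to 0.0033 with DESeq2 size factors or DESeq2 and 0.0025 with no filter. Small estimates that turned sign when a library was left out ranged as follows: Ndufv1 −0.0946 to 0.00985, Ndufs1 −0.0098 to 0.0947, Sdhc −0.237 to 0.0202, Sdhb −0.0533 to 0.0371, Sdha −0.051 to 0.0476, Ndufa4 −0.0653 to 0.173, Atp5a1 −0.075 to 0.0277, Atp5g3 −0.0663 to 0.0275, SDHC −0.0312 to 0.0251, SDHA −0.129 to 0.192, CYC1 −0.131 to 0.0528, NDUFA4 −0.118 to 0.057, ATP5MC3 −0.204 to 0.00434 and ATP5IF1 −0.0781 to 0.18. No called gene reversed.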
